A study of Mus musculus with 20 samples.

Results

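The glucocorticoid receptor gene Nr3c1, the cortisone-activating enzyme gene Hsd11b1 and 8 genes known as direct targets of the receptor in skeletal muscle (Fkbp5, Tsc22d3, Per1, Zbtb16, Klf9, Klf15, Sgk1 and Ddit4) were followed through the soleus of mice given a combined model of space exposure. These 10 genes were chosen by symbol, through the Ensembl identifiers of the count table, which has 56941 gene rows. All 10 members were among the 16778 genes that passed the filter on low counts. The soleus is a postural hind-limb muscle rich in slow oxidative fibres, and the whole muscle of one limb was used from each C57BL/6J mouse.

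The 10 exposed mice, labelled space, had 14 days of hind-limb unloading, ionizing radiation and a stress hormone given through the diet, all in the same animals. The 10 control mice were sham-irradiated and otherwise kept in a like way. The effects of unloading, radiation and hormone therefore cannot be told apart, and the labels name neither the hormone, the radiation dose, the age or sex of the mice, nor the hour of sampling. Reads of ribosome-depleted libraries made from 90 ng of total RNA were counted per gene, with 24062159 to 39620873 counts in exposed libraries and 17336017 to 43424464 in control libraries. In such bulk muscle RNA, fewer cells of a type and less RNA per cell cannot be told apart. The p-values of group tests weigh the group difference against the spread between these 20 mice. Those of correlations rest on the libraries of a single group.

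Glucocorticoids cross the cell membrane and bind the receptor encoded by Nr3c1, which waits in the cytoplasm in a complex with HSP90 and its partner proteins. The bound receptor moves to the nucleus, where it sits on response elements made of a pair of inverted half-sites and raises transcription of nearby genes. In muscle this programme is known for restraining protein synthesis and promoting amino acid release, and several of its targets, Fkbp5 and Tsc22d3 among them, act back on the receptor or on inflammatory signalling.

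The response element can be seen in the promoter sequence of a member. RefSeq windows on build GRCm38.p6, running from 250 bases before to 50 bases after a transcript's start, were at hand for 8 members (16 windows), and were matched by symbol since the counts were made on GRCm39. The patterns searched, on both strands, were the full palindrome (AGAACA, any 3 bases, then TGTTCT), its half-site AGAACA, which also counts each arm of the palindrome, and the E-box CACGTG bound by clock proteins. The palindrome was present in 3 of 32851 windows of all genes (0.00913%), one of them a window of Sgk1 in which it began 189 bases before the start. The half-site was present in 19.0% of all windows and in 4 of the 16 member windows, from Sgk1 and Tsc22d3. The E-box was present in 7.15% of all windows and in 4 member windows, from Fkbp5, Klf15, Per1 and Sgk1. The windows below are shown because they hold these letters or, for Ddit4, because one of the strongest risers among the members had none of them there. Capitals mark the matches, and in the Sgk1 window an E-box and a half-site near the 5′ end share their bases TG. A match is a description of letters, not a shown binding site, and a window without one says nothing about binding elsewhere.
Sgk1, chr10:21993640-21993939, plus strand: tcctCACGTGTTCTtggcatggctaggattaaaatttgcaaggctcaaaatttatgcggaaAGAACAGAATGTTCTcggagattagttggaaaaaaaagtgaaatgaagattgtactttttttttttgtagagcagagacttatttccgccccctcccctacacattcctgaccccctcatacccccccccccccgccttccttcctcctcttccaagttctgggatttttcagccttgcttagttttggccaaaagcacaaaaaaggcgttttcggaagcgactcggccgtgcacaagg
Tsc22d3, chrX:140600473-140600772, minus strand: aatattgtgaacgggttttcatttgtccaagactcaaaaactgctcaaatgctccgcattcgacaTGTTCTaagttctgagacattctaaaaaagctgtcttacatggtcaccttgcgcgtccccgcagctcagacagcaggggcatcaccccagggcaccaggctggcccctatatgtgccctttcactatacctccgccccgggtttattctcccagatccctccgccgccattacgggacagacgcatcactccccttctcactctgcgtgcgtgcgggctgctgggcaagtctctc
Per1, chr11:69098699-69098998, plus strand: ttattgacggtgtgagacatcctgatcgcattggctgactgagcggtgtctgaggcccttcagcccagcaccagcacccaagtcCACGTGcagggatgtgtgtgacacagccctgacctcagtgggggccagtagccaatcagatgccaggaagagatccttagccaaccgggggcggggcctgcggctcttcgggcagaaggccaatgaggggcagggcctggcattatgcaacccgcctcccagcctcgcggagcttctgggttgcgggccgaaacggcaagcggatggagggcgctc
Fkbp5, chr17:28486100-28486399, minus strand: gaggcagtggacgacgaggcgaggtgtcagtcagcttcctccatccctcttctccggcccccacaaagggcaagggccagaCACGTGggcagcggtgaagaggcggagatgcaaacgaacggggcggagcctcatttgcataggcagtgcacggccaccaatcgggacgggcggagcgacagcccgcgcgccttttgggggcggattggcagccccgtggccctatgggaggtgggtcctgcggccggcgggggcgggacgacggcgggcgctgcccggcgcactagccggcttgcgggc
Ddit4, chr10:59951721-59952020, minus strand: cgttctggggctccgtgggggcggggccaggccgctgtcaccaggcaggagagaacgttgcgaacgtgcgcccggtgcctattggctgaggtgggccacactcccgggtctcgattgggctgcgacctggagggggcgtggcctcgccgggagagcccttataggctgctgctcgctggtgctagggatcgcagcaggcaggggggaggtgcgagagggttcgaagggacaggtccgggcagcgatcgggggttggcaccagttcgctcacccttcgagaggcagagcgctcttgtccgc

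Across the 10 members, 6 were higher in exposed muscle, 1 was lower and 3 did not pass the test (edgeR quasi-likelihood test over all 16778 genes, Benjamini-Hochberg adjusted p under 0.05). The background is high, since 57.6% of all tested genes passed the same test, with 28.7% higher and 28.9% lower, so a count of 7 of 10 by itself does not set the members apart. A change that passed and was at least 2-fold was found for 2 of the 10 members, Fkbp5 and Ddit4, and for 7.19% of all tested genes. The median log2 fold change was 0.42 over the members and 0.02 over all tested genes. The receptor gene itself was the member that fell. When counts were scaled by library size alone, the median of all genes moved to 0.10 and the called genes split into 5946 higher and 3756 lower, against 4813 higher and 4850 lower with TMM factors (the trimmed-mean scaling used for all values here). Under each scaling tried the 7 called members kept their direction and their call. Without exposed replicates 1 to 4, whose nerve markers stand apart as described below, 7 members were higher and 1 was lower, beside a background of 51.3%.

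**Figure D1:**
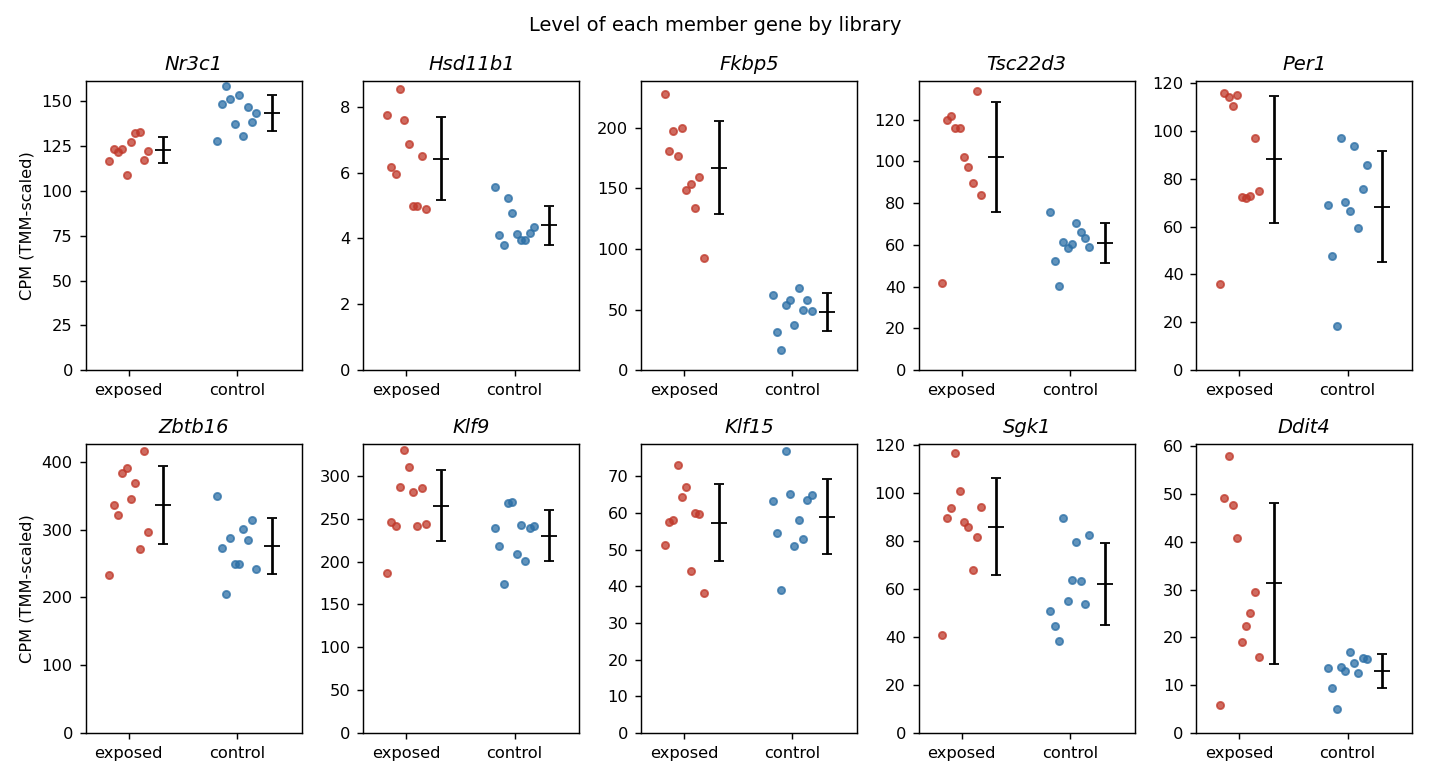
Level of each member in CPM (read counts relative to TMM-scaled library size, vertical axes from 0) in the 10 exposed and 10 control libraries, 1 point per mouse, with the mean and SD beside the points. The groups are apart for Fkbp5, overlap in a few libraries for Tsc22d3, Hsd11b1 and Ddit4, and overlap widely for Per1, Klf9 and Klf15.

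Nr3c1 (ENSMUSG00000024431.16, chromosome 18) encodes the glucocorticoid receptor. Its level was 109 CPM in the lowest, 123 in the median and 133 in the highest exposed library, against 128, 145 and 159 CPM in the lowest, median and highest control library. All 10 exposed libraries lay below the control mean and 8 lay below the lowest control library, so the ranges overlapped at their edges. The mean was 122.5 ± 7.25 CPM in exposed muscle and 143.5 ± 9.97 CPM in control muscle (SD, n = 10 each), a log2 fold change of -0.23 ± 0.042 (SE; edgeR quasi-likelihood adjusted p = 8.42e-05), or 1.17-fold lower. The fall was small, and it was smaller still when counts were scaled by library size alone (log2 fold change -0.15, edgeR adjusted p = 0.0134). Tested against a change of 1.2-fold rather than 0, it did not pass (edgeR adjusted p = 0.854).

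Hsd11b1 (ENSMUSG00000016194.15, chromosome 1) encodes the enzyme that regenerates active glucocorticoid from its inactive 11-keto form inside the cell. It was the scarcest member, with 71 to 310 reads per library. Its level was 4.90 CPM in the lowest, 6.33 in the median and 8.54 in the highest exposed library, against 3.80, 4.15 and 5.57 CPM in the control libraries. All 10 exposed libraries were above the control mean, and 7 were above every control library. The mean was 6.43 ± 1.27 CPM in exposed muscle and 4.40 ± 0.596 CPM in control muscle (SD, n = 10 each), which gave a log2 fold change of 0.55 ± 0.107 (SE; edgeR quasi-likelihood adjusted p = 8.12e-05). Lamb3 lies on the opposite strand and overlaps the gene outside its exons in the annotation used. No source used here says whether counting respected strand, so reads of such a pair may not be told apart, and Lamb3 was lower in exposed muscle (log2 fold change -1.05 ± 0.081).

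Fkbp5 (ENSMUSG00000024222.18, chromosome 17) encodes FKBP51, a co-chaperone that is induced by the receptor and lowers its affinity for hormone. Its level was 93.0 CPM in the lowest, 168.0 in the median and 228.0 in the highest exposed library, against 16.8, 51.7 and 68.0 CPM in the control libraries. It was the only member whose exposed and control ranges did not overlap, a separation that 17.4% of all tested genes showed. The mean was 167.1 ± 38.2 CPM in exposed muscle and 48.3 ± 15.6 CPM in control muscle (SD, n = 10 each), a 3.47-fold rise (log2 fold change 1.79 ± 0.223, edgeR quasi-likelihood adjusted p = 4.58e-07). Among all tested genes, 98.3% had a smaller absolute log2 fold change.

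Tsc22d3 (ENSMUSG00000031431.14, chromosome X) encodes GILZ, an anti-inflammatory leucine zipper protein. Its level was 41.5 CPM in the lowest, 108.9 in the median and 133.8 in the highest exposed library, against 40.4, 60.8 and 76.0 CPM in the control libraries. Exposed replicate 1 alone fell among the lowest control values, and the other 9 exposed libraries lay above every control library. The mean was 102.2 ± 26.4 CPM in exposed muscle and 60.8 ± 9.69 CPM in control muscle (SD, n = 10 each), a log2 fold change of 0.75 ± 0.172 (edgeR quasi-likelihood adjusted p = 0.000395).

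Ddit4 (ENSMUSG00000020108.5, chromosome 10) encodes REDD1, an inhibitor of mTORC1 signalling. Its level was 5.77 CPM in the lowest, 27.3 in the median and 57.9 in the highest exposed library, against 4.96, 13.7 and 17.0 CPM in the control libraries. It had the widest relative spread in exposed muscle, with replicates 2 to 5 between 40.9 and 57.9 CPM, replicates 6 to 10 between 15.9 and 29.5 CPM, and replicate 1 at 5.77 CPM. In 8 exposed libraries it was above every control library. The mean was 31.3 ± 16.8 CPM in exposed muscle and 13.0 ± 3.50 CPM in control muscle (SD, n = 10 each), a 2.42-fold rise (log2 fold change 1.28 ± 0.353, edgeR quasi-likelihood adjusted p = 0.00232).

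Sgk1 (ENSMUSG00000019970.16, chromosome 10) encodes a kinase that phosphorylates ion channel regulators and NDRG proteins. Its level was 40.6 CPM in the lowest, 88.6 in the median and 116.5 in the highest exposed library, against 38.3, 59.0 and 89.4 CPM in the control libraries. The ranges overlapped broadly, although 9 exposed libraries exceeded the control mean. The mean was 85.8 ± 20.3 CPM in exposed muscle and 62.0 ± 16.9 CPM in control muscle (SD, n = 10 each), a log2 fold change of 0.47 ± 0.182 (edgeR quasi-likelihood adjusted p = 0.0251). The call lay near the threshold: without exposed replicate 4, the highest library, the log2 fold change was 0.41 with an adjusted p of 0.0515 (edgeR), in a range of 0.00316 to 0.129 over 33 alternatives. Without control replicate 3 it was 0.41 (edgeR adjusted p = 0.0440), and without exposed replicates 1 to 4 together it was 0.49 (edgeR adjusted p = 0.0246), so both of these kept the call.

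Zbtb16 (ENSMUSG00000066687.6, chromosome 9) encodes PLZF, a transcriptional repressor. Its level was 232.6 CPM in the lowest, 340.9 in the median and 416.4 in the highest exposed library, against 205.5, 278.7 and 349.9 CPM in the control libraries. The ranges overlapped, with 8 exposed libraries above the control mean. The mean was 336.5 ± 57.2 CPM in exposed muscle and 275.7 ± 41.3 CPM in control muscle (SD, n = 10 each), a log2 fold change of 0.29 ± 0.107 (edgeR quasi-likelihood adjusted p = 0.0168).

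The remaining 3 targets did not pass the test. Per1 (ENSMUSG00000020893.18, chromosome 11), a repressor of the circadian clock, was at 36.2 CPM in the lowest, 85.9 in the median and 115.9 in the highest exposed library, against 18.4, 69.7 and 97.0 CPM in the control libraries. In all, 9 of 10 exposed libraries exceeded the control mean, yet both groups were wide, and the log2 fold change was 0.37 ± 0.275 (edgeR quasi-likelihood adjusted p = 0.206). Klf9 (ENSMUSG00000033863.3, chromosome 19), a zinc-finger regulator induced by steroid and thyroid hormones, was at 186, 264 and 330 CPM in the lowest, median and highest exposed library, against 174, 239 and 270 CPM in the control libraries. Its log2 fold change of 0.21 ± 0.097 lay at the threshold (edgeR adjusted p = 0.0530, with 0.00398 to 0.791 over 33 alternatives, 15 of them under 0.05). Leaving out exposed replicate 1, 3 or 8 or control replicate 4 or 5 brought it under the threshold, with edgeR adjusted p-values of 0.00827, 0.0477, 0.0491, 0.0347 and 0.0330 in that order. Klf15 (ENSMUSG00000030087.12, chromosome 6), which drives branched-chain amino acid breakdown, was at 38.1, 58.9 and 73.0 CPM in the exposed libraries, against 39.1, 60.6 and 76.9 CPM in the control libraries. The ranges of Klf15 nearly coincided, and its log2 fold change was -0.04 ± 0.122 (edgeR adjusted p = 0.794), with a sign that depended on scaling and on single libraries.

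Per length of annotated exon, Zbtb16 and Klf9 were the most abundant members in both groups. Zbtb16 was at 63.7 ± 10.8 CPM per kb in exposed muscle and 52.2 ± 7.81 in control muscle, and Klf9 at 55.1 ± 8.63 CPM per kb in exposed muscle and 47.8 ± 6.23 in control muscle (SD, n = 10 each). In exposed muscle the next 7 members, Tsc22d3, Klf15, Ddit4, Fkbp5, Sgk1, Nr3c1 and Per1 in falling order, lay between 15.6 and 23.5 CPM per kb, and the 1 SD ranges of neighbours in that order overlapped. In control muscle Klf15 and Nr3c1 stood next at 21.1 and 18.7 CPM per kb, above a second gap, and Fkbp5 was at 5.11, the lowest but 1. Hsd11b1 was last, at 1.51 ± 0.299 CPM per kb in exposed muscle and 1.04 ± 0.140 in control muscle, below its neighbour by more than their SDs in each group.

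**Figure D2:**
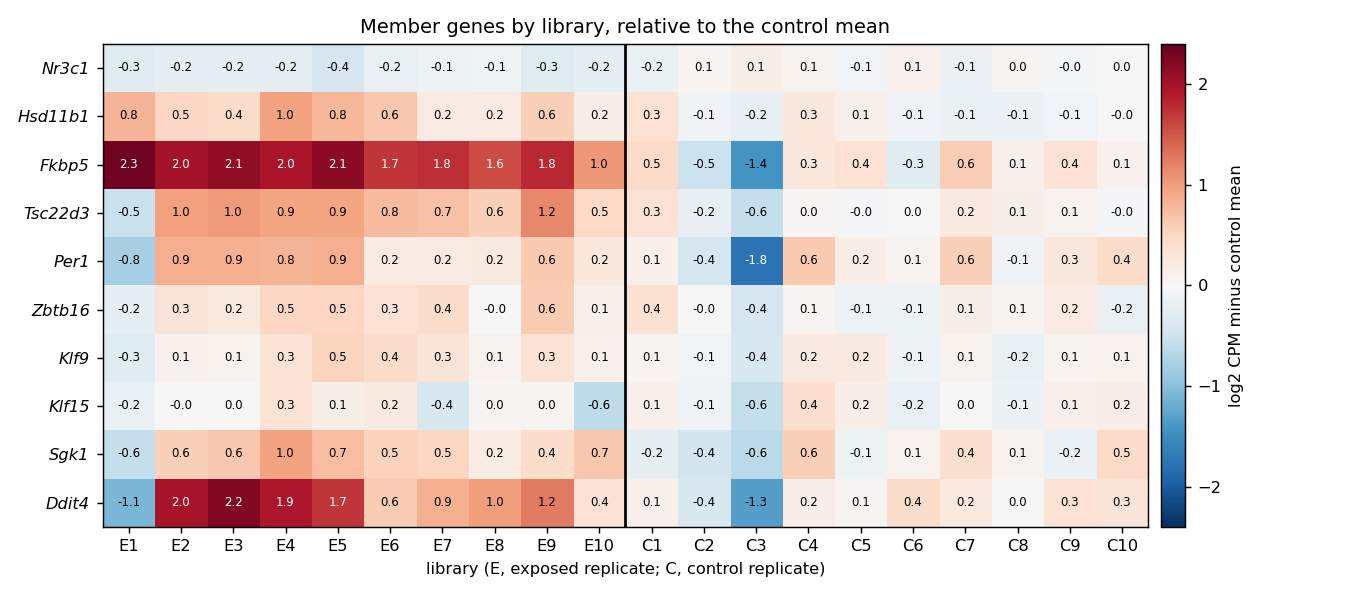
Log2 CPM of each member (rows) in each library (columns; E, exposed replicate; C, control replicate) minus the mean of the control libraries. Exposed replicate 1 is below the control mean for 7 of the 8 targets and has the highest Fkbp5, while control replicate 3 is below it for all 8.

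One exposed library departed from the rest in most of its targets. In exposed replicate 1, 1 of the 8 targets was above the control mean, whereas in the other 9 exposed libraries 7 or 8 were. The exception was Fkbp5, which at 228.0 CPM was the highest of all 20 libraries, 2.33 log2 units above the control mean. In the same library the difference from the control mean was -1.10 log2 units for Ddit4, -0.80 for Per1, -0.56 for Sgk1 and -0.53 for Tsc22d3, and it was 0.82 for Hsd11b1. Among the controls, replicates 2 and 3 had none of the 8 targets above the control mean, and replicate 3 was the lowest control library for each of the targets. That library differed from the control mean by -1.43 log2 units for Fkbp5 and -1.77 for Per1. Without exposed replicate 1 and control replicate 3 together, a choice made after these values were seen, 8 members passed, Klf9 being added (log2 fold change 0.21, edgeR adjusted p = 0.0118), and Per1 came to an edgeR adjusted p of 0.0558, the lowest of its 33 alternatives, which reached up to 0.441.

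The RNA of exposed replicate 1 also differed inside the Fkbp5 locus. In the annotation used here, a pair of transcript models, AC154912.5 and AC154912.3, lies on the Fkbp5 strand within its introns with no overlap of its exons. These models were looked at after their values were seen. Reads of unspliced Fkbp5 RNA and of separate transcripts there cannot be told apart. Their summed level was 1.52 CPM in the lowest, 13.6 in the median and 24.8 in the highest exposed library, against 0.897, 2.33 and 4.67 CPM in the control libraries. The lowest exposed value was that of replicate 1, and the other 9 exposed libraries were above every control library. Both models were higher in exposed muscle, AC154912.5 by 2.32 ± 0.47 and AC154912.3 by 2.69 ± 0.52 log2 units (edgeR quasi-likelihood adjusted p = 0.000271 and 0.000101). Relative to Fkbp5 itself, the summed CPM of the models was 0.668% in exposed replicate 1 and 7.99% in the median exposed library, against 1.68% to 9.43% in the control libraries. High Fkbp5 mRNA in this mouse thus came with a low intron signal and with low Ddit4, Per1 and Tsc22d3. The same library had the highest summed macrophage markers (138.2 CPM) and lymphocyte markers (6.96 CPM) of all 20 libraries. It also had the lowest red blood cell markers (11.2 CPM) and the highest TMM factor (1.16). Its nerve markers summed to 1266 CPM, and the part of these differences in its target levels was not tested.

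Within the exposed group the intron signal followed these other targets closely. Its Pearson r with Per1 was 0.97 (Spearman rho 0.88, permutation adjusted p = 0.00147 over 20 relations, n = 10), with Ddit4 0.95 (rho 0.95, the same adjusted p) and with Tsc22d3 0.92 (rho 0.84, the same adjusted p). Without the 2 libraries farthest from its median, which were replicates 1 and 10, r was 0.95 with Per1 (exact permutation p = 0.00102), 0.86 with Ddit4 (exact p = 0.00694) and 0.86 with Tsc22d3 (exact p = 0.00831). With Fkbp5 mRNA itself r was 0.15 (rho 0.33, permutation adjusted p = 0.708) over all 10 exposed libraries and 0.81 without replicate 1 (permutation adjusted p = 0.0135). In control muscle none of the 10 relations passed after adjustment, and 2 had an unadjusted p under 0.05. The highest r there was 0.70, with Zbtb16 (rho 0.59, permutation adjusted p = 0.0813), and the difference between the groups was not tested.

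**Figure D3:**
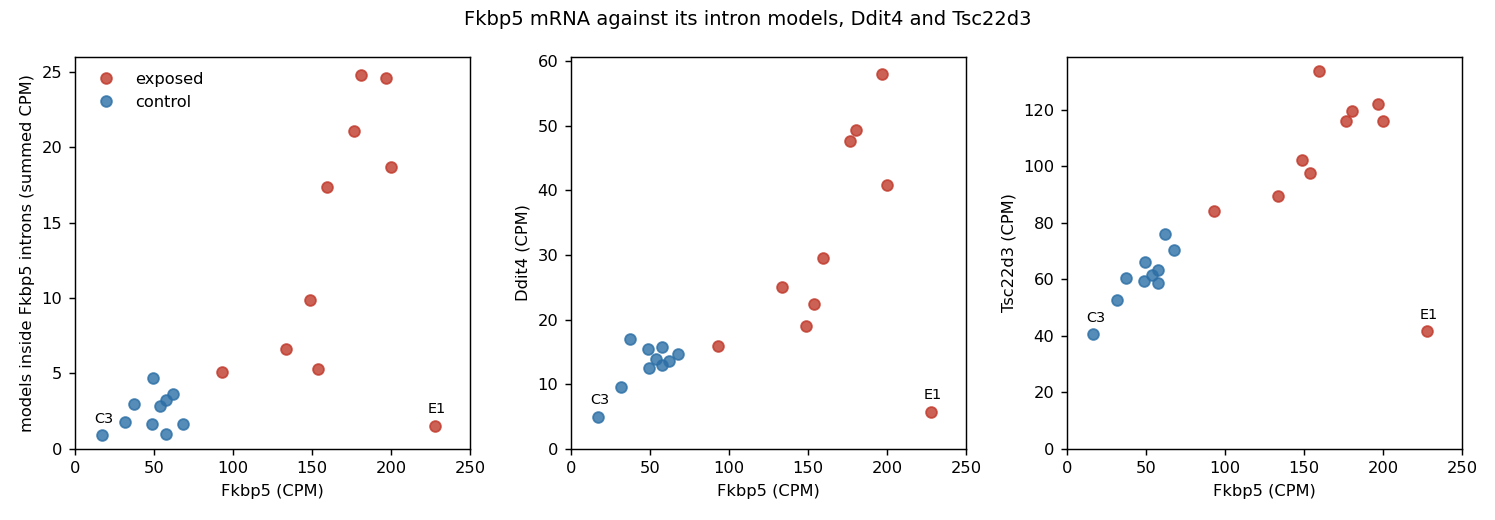
Fkbp5 level (CPM, horizontal axes) against the summed level of the intron models, Ddit4 and Tsc22d3 (CPM, vertical axes), 1 point per library, with exposed replicate 1 (E1) and control replicate 3 (C3) named. E1 has the highest Fkbp5, at 228.0 CPM, together with 1.52 CPM of intron models, 5.77 CPM of Ddit4 and 41.5 CPM of Tsc22d3.

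Most pairs of targets had a positive Pearson r from mouse to mouse within each group. Correlations of log2 CPM were computed for the 45 pairs of members in each group, and permutation p-values were adjusted over all 90. Of the 28 pairs of targets, 25 had a positive r in exposed muscle, with a median of 0.59, and 28 did in control muscle, with a median of 0.74. Over the 45 pairs, 7 passed the adjusted test in exposed muscle and 14 in control muscle, and 15 exposed and 24 control pairs had an unadjusted p under 0.05. By Spearman's rho none passed in either group after adjustment, with 8 exposed and 12 control pairs at an unadjusted permutation p under 0.05. Each r here shares the libraries, depth and scaling of its group. No share over all gene pairs stands beside these counts, so by themselves they do not set the members apart.

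The tightest exposed pair was Per1 and Ddit4, with r = 0.97 and rho = 0.85 (permutation adjusted p = 0.00585 and 0.0760). It kept r = 0.91 (exact permutation p = 0.00325) without the 2 libraries farthest in Per1, replicates 1 and 2. Tsc22d3 and Per1 had r = 0.94 and rho = 0.73 in exposed muscle (permutation adjusted p = 0.0151 and 0.144), and r = 0.80 without replicates 1 and 10 (exact permutation p = 0.0180). In control muscle the tightest pair was Klf9 and Klf15, with r = 0.95 and rho = 0.89 (permutation adjusted p = 0.00585 and 0.0724), and r = 0.88 without replicates 3 and 8 (exact permutation p = 0.00583). Per1 and Sgk1 in control muscle had r = 0.81 and rho = 0.79 (permutation adjusted p = 0.00840 and 0.0906), and r = 0.74 without replicates 2 and 3 (exact permutation p = 0.0402).

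Fewer pairs passed with libraries left out. Of the pairs that passed, 3 of 7 in exposed and 3 of 14 in control muscle still had an exact permutation p under 0.05 without the 2 farthest libraries, and 6 of 7 and 11 of 14 kept an absolute r over 0.5. Without exposed replicate 1 a single exposed pair passed, Fkbp5 and Ddit4 (r = 0.85), and without control replicate 3 a single control pair did, Klf9 and Klf15 (r = 0.89, permutation adjusted p = 0.0499). The 7 exposed pairs that no longer passed without replicate 1 had r of 0.47 to 0.92 there: Per1 and Ddit4 had 0.92 (permutation adjusted p = 0.0737), Tsc22d3 and Per1 0.81, and Tsc22d3 and Ddit4 0.75. In control muscle Per1 and Sgk1 had r = 0.83 without replicate 3 (permutation adjusted p = 0.0737). Of the target pairs, 27 of 28 exposed ones were positive without exposed replicate 1 (median r 0.47) and 26 of 28 control ones without control replicate 3 (median r 0.38). In exposed replicates 5 to 10 alone, 27 of 28 target pairs were positive (median r 0.60). None passed after adjustment, with 4 at an unadjusted exact p under 0.05. The exact test there had 720 orders, too few for a single pair to pass adjustment over 45 pairs.

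The median r of Fkbp5 with the 7 other targets was 0.0095 in exposed muscle, with 4 of 7 positive, and 0.82 in control muscle, with 7 of 7 positive. Without exposed replicate 1 the exposed median was 0.68, again with 7 of 7 positive, and without control replicate 3 the control median was 0.52. The difference of correlations between the groups was not tested.

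**Figure D4:**
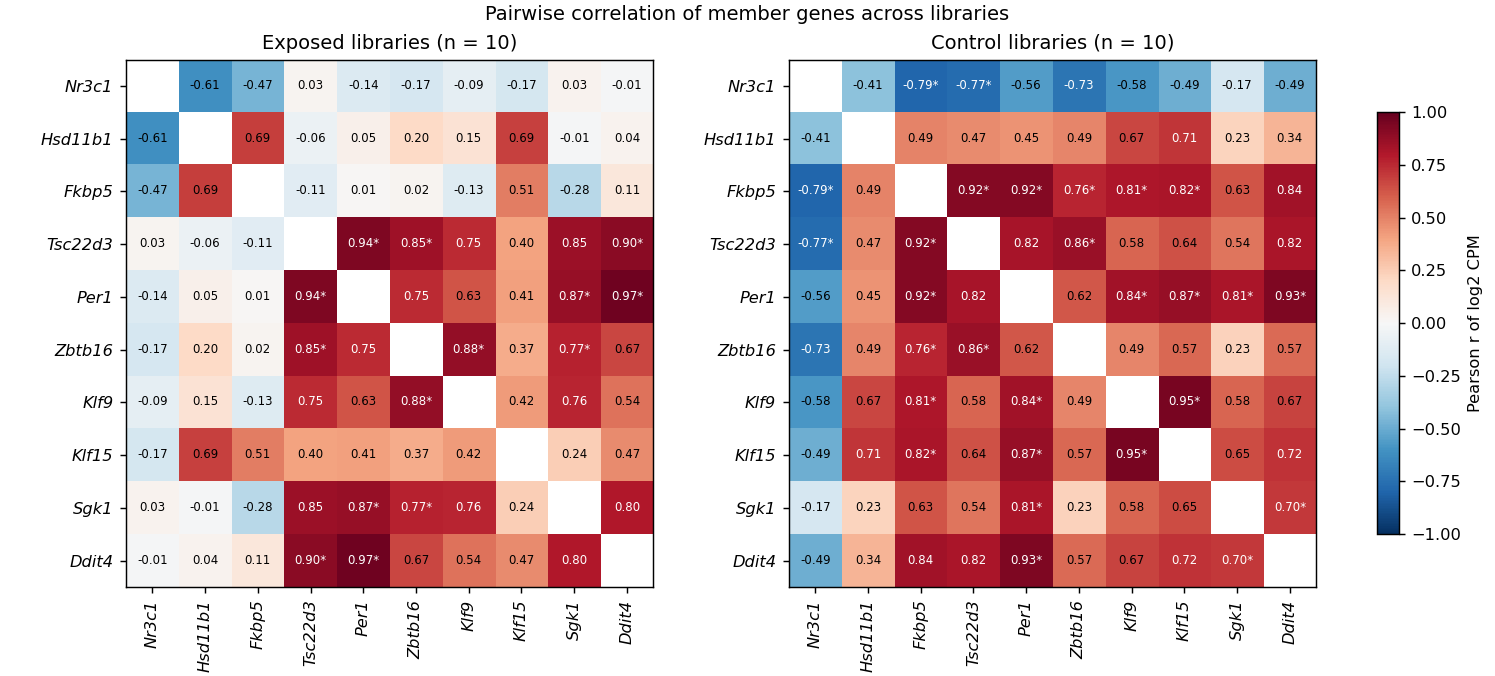
Pearson r of log2 CPM for each pair of members across the 10 exposed libraries (left) and the 10 control libraries (right), on a colour scale from -1 to 1, with asterisks at permutation adjusted p under 0.05. Target pairs are mostly positive in both groups, Nr3c1 is negative with each of the 8 targets in control libraries, and Fkbp5 is near 0 with most targets in exposed libraries.

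In control muscle Nr3c1 had a negative r with 8 of 8 targets, with a median of -0.57. Without control replicate 3 the median was -0.30, 1 of the 8 was positive (Sgk1, r = 0.17) and none passed the adjusted test, with 2 at an unadjusted permutation p under 0.05. With Fkbp5, r over all 10 control libraries was -0.79 (rho -0.88, permutation adjusted p = 0.0220 and 0.0724). That relation kept r = -0.79 without control replicates 1 and 7 (exact permutation p = 0.0117), and r was -0.77 without control replicate 3, where it no longer passed (permutation adjusted p = 0.15). With Tsc22d3 it was also -0.77 (rho -0.64, permutation adjusted p = 0.0320 and 0.224), but -0.60 without the 2 farthest libraries (exact permutation p = 0.118). In exposed muscle 6 of 8 were negative with a median of -0.11, and without exposed replicate 1 all 8 were, with a median of -0.48, though none passed the adjusted test and 1 had an unadjusted p under 0.05. Hsd11b1 had r = 0.69 with Fkbp5 and 0.69 with Klf15 in exposed muscle (rho 0.64 and 0.65, permutation adjusted p = 0.0632 and 0.0743), and 0.71 with Klf15 in control muscle (rho 0.77, permutation adjusted p = 0.0582), none of which passed.

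Over all 20 libraries with the group means taken out, likeness to Fkbp5 was ranked among 13655 genes of at least 1 CPM on average. The 5 genes most like it were Spock2 (r = 0.83), Foxo3 (0.80), Il6ra (0.79), Fam107a (0.75) and Tfdp2 (0.75). Among the members, Klf15 ranked 27th (r = 0.67) and Per1 54th (0.63) for Fkbp5, while Nr3c1 was near the bottom at 13626 (r = -0.67). The genes most like Nr3c1 were A630089N07Rik (r = 0.77), Scoc (0.73), Wsb1 (0.72), Pigk (0.71) and Ptk2 (0.70). Per1, Sgk1, Ddit4 and Tsc22d3 ranked high for one another. For Per1, Ddit4 had rank 2, Sgk1 rank 3 and Tsc22d3 rank 6 of all genes, and Per1 had rank 1 for Sgk1 (r = 0.83). The lowest of their ranks was 65, that of Sgk1 for Tsc22d3. Other members ranked as high in places: Tsc22d3 had rank 4 for Zbtb16, and Zbtb16 had rank 16 for Tsc22d3 (r = 0.83). Klf9 and Per1 each had rank 32 for the other. The ranking includes exposed replicate 1 and control replicate 3, in which Per1, Sgk1, Ddit4, Tsc22d3, Zbtb16 and Klf9 were low. No ranking without those libraries is given.

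The wider pathway was counted in lists of related genes. The background for each such count is that 28.7% of all tested genes were higher and 28.9% lower. Of 30 other genes known to be induced by glucocorticoids, 18 were higher, 2 were lower and 10 did not pass, with a median log2 fold change of 0.52, against 0.02 over all tested genes. The 2 lower genes, Irs2 and Cavin2, changed by -1.20 ± 0.215 and -0.43 ± 0.066 log2 units (edgeR adjusted p = 0.000115 and 1.96e-06). Both were named after their values were seen, as were Trim63 and Pdk4, which did not pass (edgeR adjusted p = 0.633 and 0.328). Without exposed replicates 1 to 4 the counts were 14 higher and 2 lower. Glul, glutamine synthetase, rose to 438.2 ± 71.7 CPM in exposed muscle, against 178.0 ± 29.9 CPM in control muscle (log2 fold change 1.30 ± 0.108, edgeR adjusted p = 4.56e-10). Gadd45a, a stress-induced growth arrest gene, rose 2.62-fold, Pik3r1, the regulatory subunit of PI3-kinase, 2.47-fold, and Eif4ebp1, the translation inhibitor downstream of mTORC1, 1.70-fold (edgeR adjusted p = 6.59e-10, 1.51e-08 and 1.82e-08). In exposed replicate 1, 17 of the 30 were above the control mean, in replicate 10 it was 13, and in the other 8 exposed libraries 23 to 25. Control replicate 3 had 3 of 30 above it.

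**Figure D5:**
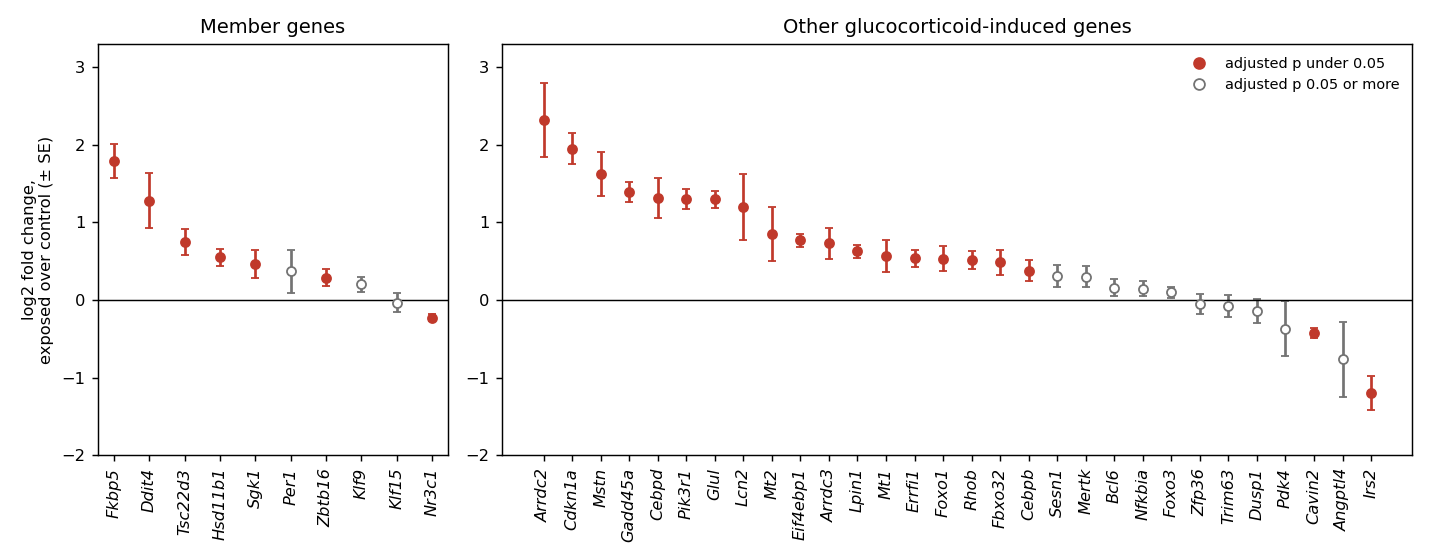
Log2 fold change, exposed over control, with its SE, for the members (left) and 30 other glucocorticoid-induced genes (right), sorted by size. Filled points passed at adjusted p under 0.05: 7 of the 10 members and 20 of the 30 other genes, of which Nr3c1 on the left and Cavin2 and Irs2 on the right lie below 0.

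Of 14 chaperones and partners of the unbound receptor, 9 were lower, none was higher and 5 (Dnaja1, Dnajb1, Ppid, Ppp5c and Ptges3, the gene of p23) did not pass, with a median log2 fold change of -0.31. Without exposed replicates 1 to 4, 9 were lower and 1 was higher. The HSP70-interacting protein gene St13 was at 78.3 ± 5.53 CPM in exposed muscle and 108.1 ± 4.69 CPM in control muscle (log2 fold change -0.47 ± 0.038, edgeR adjusted p = 5.81e-10). Hspa4, an HSP110 chaperone, changed by -0.44 ± 0.046, Stip1, which joins HSP70 to HSP90, by -0.42 ± 0.053 and Bag1, an HSP70 nucleotide exchange factor, by -0.33 ± 0.041 log2 units, each lower in 10 of 10 exposed libraries (edgeR adjusted p = 1.47e-08, 1.55e-07 and 5.53e-07). The HSP90 genes Hsp90aa1 and Hsp90ab1, named after their values were seen, changed by -0.64 ± 0.0996 and -0.34 ± 0.0469 log2 units (edgeR adjusted p = 9.07e-06 and 2.58e-06).

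Coregulators of the receptor went mostly the other way, with 10 of 14 higher, 2 lower and 2 not passing (median log2 fold change 0.25), counts that were the same without exposed replicates 1 to 4. The coactivator Ncoa1 rose by 0.62 ± 0.040, the histone acetyltransferase Crebbp by 0.38 ± 0.023 and the arginine methyltransferase Carm1 by 0.55 ± 0.050 log2 units (edgeR adjusted p = 9.39e-12, 3.32e-10 and 7.86e-10). Of 8 genes of steroid supply and transport and of corticoid receptors, 5 could be tested, of which 3 were higher, 1 was lower and 1 did not pass. H6pd, which makes the cofactor that Hsd11b1 needs, rose to 56.6 ± 2.19 CPM in exposed muscle, against 31.0 ± 3.26 CPM in control muscle (1.83-fold, edgeR adjusted p = 6.38e-13). The steroid-exporting transporter genes Abcb1b and Abcb1a rose by 0.81 ± 0.073 and 0.18 ± 0.068 log2 units (edgeR adjusted p = 3.94e-10 and 0.0173), and Akr1c14, a hydroxysteroid dehydrogenase, was 2.79-fold lower (edgeR adjusted p = 5.61e-08). The gene of this list that did not pass was the mineralocorticoid receptor gene Nr3c2, named after its value was seen. It had a log2 fold change of 0.12 ± 0.057 (edgeR adjusted p = 0.0538).

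Genes linked to single members gave mixed counts. Of 9 tested amino acid catabolism genes linked to Klf15, 3 were higher and 3 lower: Gpt2, mitochondrial alanine aminotransferase, was 4.20-fold higher and Prodh, proline dehydrogenase, 2.13-fold higher, while Got1 and Gpt, cytosolic transaminases, were 1.53-fold and 1.55-fold lower (edgeR adjusted p = 1.59e-15, 8.95e-08, 3.26e-09 and 1.19e-05). Without exposed replicates 1 to 4 they were 4 higher and 2 lower. Among 4 relatives and substrates of Sgk1, the ubiquitin ligase Nedd4l was 2.16-fold and Ndrg1 1.66-fold higher, the paralog Sgk3 was 1.69-fold lower and Ndrg2 had a log2 fold change of 0.03 (edgeR adjusted p = 1.06e-12, 0.0204, 1.45e-09 and 0.646).

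Of 12 genes on the mTORC1 axis that Ddit4 inhibits, 5 were higher, 4 lower and 3 did not pass. Its paralog Ddit4l was at 183.1 ± 46.0 CPM in exposed muscle and 43.8 ± 15.8 CPM in control muscle, a 4.17-fold rise (edgeR adjusted p = 6.20e-08). Deptor, an inhibitory mTOR partner, rose by 0.57 ± 0.058 and the S6 kinase Rps6kb1 by 0.40 ± 0.033, while Sesn3, of the sestrin family that restrains mTORC1, fell by 0.95 on the log2 scale (edgeR adjusted p = 4.94e-09, 1.97e-09 and 4.13e-13). Without exposed replicates 1 to 4 the counts were 5 higher and 3 lower.

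Of 18 clock and clock output genes other than Per1, 6 were higher, 2 lower and 10 did not pass, and without exposed replicates 1 to 4 they were 5 higher and 1 lower. Rora, a clock activator, rose 1.69-fold, Cry1, which represses together with the PER proteins, 1.54-fold, the PAR-zipper factor Tef 1.35-fold and Arntl, the partner of CLOCK, 1.66-fold (edgeR adjusted p = 2.40e-10, 3.48e-05, 0.000414 and 0.00171). The 2 lower genes, named after their values were seen, were Dbp (2.43-fold) and Ciart (2.05-fold, edgeR adjusted p = 0.00918 and 0.0129). Of 14 immediate early genes, which respond quickly to many stimuli, 4 were higher, 1 was lower and 9 did not pass. Fos was 1.85-fold and Myc 1.36-fold higher and Btg2 was 1.71-fold lower (edgeR adjusted p = 0.00995, 0.0311 and 0.000546). Egr2 had a 2.16-fold higher mean (edgeR adjusted p = 0.0362) with 4 of 10 exposed libraries above the control mean, and a log2 fold change of -0.43 without exposed replicates 1 to 4.

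Markers of other cells moved with the groups, and their part in the values above was not tested. All 10 Schwann cell and nerve markers were higher, with a summed level of 101 to 1549 CPM in exposed libraries and 100 to 202 CPM in control libraries. The sum was 537 to 1549 CPM in exposed replicates 1 to 4 and 101 to 193 CPM in replicates 5 to 10, and without replicates 1 to 4 there were 4 markers higher and 1 lower. Within replicates 5 to 10, Fkbp5 ran from 93.0 to 199.8 CPM and Tsc22d3 from 84.0 to 133.8 CPM, above the control ranges of 16.8 to 68.0 and 40.4 to 76.0 CPM. The log2 fold change without replicates 1 to 4 was 1.63 for Fkbp5, 0.78 for Tsc22d3, 0.99 for Ddit4 and -0.21 for Nr3c1 (edgeR adjusted p = 4.85e-05, 3.93e-05, 0.00259 and 0.00178).

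The 10 muscle fibre markers summed to 50113 to 65818 CPM in exposed and 49639 to 58767 CPM in control libraries. The sum was 50113 to 58132 CPM in exposed replicates 1 to 4 and 60017 to 65818 CPM in replicates 5 to 10, above every control library. Of the markers 4 were higher and 5 lower, so the sums hold opposite shifts. Myh2, a fast myosin heavy chain, was at 320.9 ± 256.7 CPM in exposed and 10020 ± 798 CPM in control muscle, and Acta1, skeletal actin, was 2.14-fold lower. Myh1, another fast myosin heavy chain, was 4.19-fold and Ckm, muscle creatine kinase, 2.21-fold higher (edgeR adjusted p = 9.53e-11 for Myh2, 1.65e-09 for Acta1, 2.67e-11 for Myh1 and 8.27e-14 for Ckm). Myh4, a fast myosin heavy chain named after its value was seen, was 20.9-fold higher (edgeR adjusted p = 1.08e-06). Of 9 tested adipocyte markers 1 was higher and 1 lower (summed 761 to 1183 CPM in exposed and 523 to 932 CPM in control libraries). Plin4 made up most of that sum, with a mean of 770.2 CPM in exposed and 674.4 CPM in control muscle. Of 9 tested macrophage markers 4 were higher (66.3 to 138.2 CPM in exposed and 49.2 to 95.9 CPM in control libraries). The highest of these sums was that of exposed replicate 1. Without exposed replicates 1 to 4, 2 macrophage markers were higher and none lower, while no adipocyte marker was higher and 2 were lower. Endothelial markers had 1 of 8 higher and 3 lower (374 to 466 CPM in exposed and 414 to 541 CPM in control libraries), and fibroblast and tendon markers 2 of 8 higher and 5 lower (449 to 684 CPM in exposed and 570 to 1308 CPM in control libraries). Of 5 red blood cell markers none passed by edgeR's quasi-likelihood test, nor had any an unadjusted p under 0.05 (11.2 to 51.3 CPM summed in exposed and 29.2 to 54.5 CPM in control libraries), and of 7 lymphocyte markers, at 3.07 to 6.96 CPM in exposed and 2.46 to 5.67 CPM in control libraries, Ptprc alone passed the count filter, with an edgeR adjusted p of 0.174. No marker of any list was at 0 in all libraries.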

How the data were processed

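For 20 soleus libraries, 10 exposed and 10 control, the authors deposited raw counts of reads in a single table by Ensembl gene. The submitters' processing notes name build GRCm39 and the tools featureCounts 1.5.1, Subread, MultiQC 1.15 and edgeR. The role of each tool, strandedness and annotation release are not given there. Symbols came from GENCODE M21 by Ensembl identifier (51948 of 56941 rows, 97.6% of counts). Exon lengths, strands and overlaps of genes came from that release too, and may differ from those in the annotation used for counting.

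The analysis used edgeR 4.0.16 under R 4.3.3, with filterByExpr (minimum count 10, total 15), TMM scaling, robust quasi-likelihood tests and Benjamini-Hochberg adjustment over 16778 genes. CPM is TMM-scaled, and log2 CPM uses a prior count of 2. Each SE comes from the variance of log2 CPM between libraries of each group, not from the fitted model. The procedure was tested on simulated counts with a single dispersion and few changed genes. In these data 57.6% of genes were called, a setting that the simulation did not cover. The common biological coefficient of variation was 0.149. Correlations used 2-sided tests with 100000 permutations, or exact ones where stated. Members and gene lists were chosen with earlier results of these data known. The text names all members and up to 4 genes per list by smallest p, with exceptions named as such, and the 5 genes most like Nr3c1 and Fkbp5. A gene that this rule names among the coregulators is not reported here. No library columns were identical (highest Spearman correlation 0.993), and a permutation test of the difference in total counts gave p = 0.588. Alternatives covered scaling, filters, DESeq2 1.42.0, limma 3.58.1, thresholds and left-out libraries.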

Additional observations from a re-analysis of the deposited data

How the results depend on the processing

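Results were recomputed under 33 alternatives. Of the 7 called members, Fkbp5, Tsc22d3 and Hsd11b1 passed under all 33, and no called member changed sign under any of them. A fold threshold of 1.2 left 4864 genes and 4 members called, with adjusted p-values of 0.854 for Nr3c1 (log2 fold change -0.23), 0.398 for Zbtb16 (0.29) and 0.129 for Sgk1 (0.47), and at an adjusted p under 0.01 Zbtb16 (0.29) and Sgk1 (0.47) were not called. Klf9 passed with scaling by DESeq2's size factors (log2 fold change 0.21), by upper quartiles (0.27) or by library size (0.28), in the DESeq2 test (0.21), in limma-voom with quality weights (0.23), with a minimum of 1 CPM (0.23), without mitochondrial and the 10 most abundant genes (0.21), without exposed replicates 1 to 4 (0.30) and without both low libraries (exposed replicate 1 and control replicate 3, chosen after seeing the data; 0.21). Klf15 turned positive with upper-quartile factors (0.024) and library size alone (0.050). Without exposed replicates 1 to 4, Alas2 (0.080), Egr2 (-0.43), Hba-a1 (0.11), Hba-a2 (0.042) and Hbb-bs (0.030) changed sign.

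Leaving out 1 library at a time gave 6 to 8 called members and 9398 to 9643 called genes. The log2 fold change ran from 0.16 to 0.25 for Klf9, from -0.094 to 0.014 for Klf15, which turned positive without exposed replicate 10 (0.014) and control replicate 4 (0.0091), and from 0.41 to 0.55 for Sgk1, whose call ended without exposed replicate 4 (0.41).

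Exposed and control replicates share numbers 1 to 10, but the same number did not pair them (median r 0.03, none of 10 over 0.1). With the replicate block 7 members were called: Klf9 passed (0.20, edgeR adjusted p = 0.0250) and Ddit4 did not (1.09, edgeR adjusted p = 0.0512).

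Correlated pairs numbered 12 in exposed muscle with library size alone, 0 without exposed replicates 1 to 4, and 1 in each group without both low libraries. With exposed replicates 1 to 4 left out, the exact test had 720 orders, too few for a single pair to pass adjustment over 45 pairs. By Spearman's rho there were 0 in each group. The cause of these changes was not tested. The scarcest member, Hsd11b1, rested on 71 or more reads per library, and its relative counting error is the largest among the members.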
